A study of Mus musculus with 33 samples.

Results

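The joints followed here are IGKV1-122's, IGKV1-131's, IGKV1-132's and IGKV1-133's, that is, those of 4 members of the Vκ1 family at the distal end of the mouse immunoglobulin κ light-chain (Igk) locus. Among 162 Vκ genes with coordinates and 1 without, the 4 were chosen by their share of Vκ-Jκ joints, as distal Vκ1 genes that were lower in Wapl∆P1,2/∆P1,2 than in Wapl+/+ B cell progenitors. VDJ-seq captures joined V and J segments from sheared genomic DNA and counts which V gene each joint contains. The 20 libraries came from bone marrow cells of C57BL/6 mice that were 4-5 weeks old, sorted ex vivo as Kit+CD25- (pro-B) or Kit-CD25+ (pre-B) cells. There were 6 pro-B libraries and 4 pre-B libraries of each genotype. A list of H3K27ac peaks came from 1 further library, of pro-B cells sorted from the bone marrow of C57BL/6 mice of the Rag1(Cre/Cre) genotype. The Wapl∆P1,2/∆P1,2 mice, called mutant below, carry germline deletions that remove a Pax5-binding site of the Wapl promoter (P1) and a region downstream of it with another such site (P2), and their B cell progenitors express more Wapl than those of Wapl+/+ mice, called wild-type below. Neither the Wapl level nor the surface markers of the sort can be read from these DNA libraries, and whether a library came from 1 mouse was not given in the sources used here. The description of the genes as lowered held for 3 of the 4, as IGKV1-131's value was 0 in all 20 libraries.

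As background, V(D)J recombination joins a Vκ to a Jκ gene segment when the RAG recombinase cuts at the recombination signal sequence next to each of them. A Vκ signal lies directly behind the V exon and consists of a heptamer, a short spacer and a nonamer. Most rearrangement at Igk takes place in pre-B cells, whereas pro-B cells, which are still rearranging their heavy-chain genes, do so at a low level. Wapl releases the cohesin ring from chromatin and thereby limits how far cohesin can extrude a DNA loop. Octamer sequences upstream of V genes are bound by the POU-domain factors Oct1 and Oct2.

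All coordinates are those of mm9, in which the genes lie on chromosome 6 and the GENCODE vM1 annotation gives each of them a leader exon and a V exon of 313 bases without an in-frame stop codon. IGKV1-122 (ENSMUSG00000076513.1) lies at chr6:67966736-67967482 on the forward strand. Farther from the Jκ elements by 250.0 kb, IGKV1-131's exons (ENSMUSG00000076505.1) lie at chr6:67716030-67716766 on the reverse strand, and this is the one gene of the 4 that is classified as an open reading frame rather than as functional. IGKV1-132 (ENSMUSG00000076504.1) lies 5.62 kb beyond it at chr6:67709694-67710407, and IGKV1-133 (ENSMUSG00000076503.1) another 34.0 kb away at chr6:67674908-67675655, both on the forward strand. IGKV1-135's exons (ENSMUSG00000076502.1), those of a highly used relative, lie 114 kb farther out at chr6:67559739-67560502, also on the forward strand. Between IGKV9-120 and IGKV1-133 the 4 genes are interleaved with 11 genes of other Vκ families.

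By sequence the 4 genes form a group of 3 and a single gene. The V exons of the open reading frame, IGKV1-132 and IGKV1-133 were between 93.0% and 94.9% identical to each other, and that of IGKV1-133 was 96.5% identical to IGKV1-135's, from which it differed at 11 positions. IGKV1-122 was closest to IGKV1-110 (92.1%), followed by IGKV1-117's V exon (90.8%), and was between 77.0% and 79.9% identical to the other three. How reads fitting more than 1 of these genes were assigned was not given in the sources used here.

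The signals behind the V exons are shown because they are the sites at which these genes are cut, and because the open reading frame, which was listed at 0 throughout, differs from the other three there. The heptamer CACAGTG, or the part of it that is left, and the nonamer are in capitals, from 5′ to 3′ on the strand of each gene in mm9.
IGKV1-122's signal (chr6:67967483-67967510): CACAGTGatgcagaccctaACAAAAACA
IGKV1-131's signal (chr6:67716002-67716029): CACAGaccctaACAAAAACTtccttgcc
IGKV1-132's signal (chr6:67710408-67710435): CACAGTGatacagaccctaTCAAAAACT
IGKV1-133's signal (chr6:67675656-67675683): CACAGTGatacagactctaTCAAAAACT
IGKV1-135's signal (chr6:67560503-67560530): CACAGTGattcagacccgaACAAAAACT
IGKV1-110's signal (chr6:68221262-68221289): CACAGTGatacagaccctaACAAAAATA

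The open reading frame carried no intact heptamer. Its sequence matched that of IGKV1-132 at 19 of 20 bases once a gap of 8 bases was allowed, so that the nonamer began at base 12 behind the V exon instead of base 20. Among all 162 Vκ genes with coordinates, an exact heptamer behind the V exon was found in 10 of the 46 genes at 0 in all 20 libraries and in 97 of the 116 genes above 0 in at least 1 library. IGKV1-132 and IGKV1-133 shared the nonamer TCAAAAACT, which no other of the 162 genes carried at this place, and their nonamers were the only 2 beginning with T among 92 functional genes. The nonamer of IGKV1-122 matched the consensus ACAAAAACC at 8 of 9 bases, and those of IGKV1-132 and IGKV1-133 matched it at 7. These matches describe the letters, and their effect on recombination was not tested.

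Upstream of the start codon, the same grouping appeared. The 60 bases from 130 to 71 bases before the start codon are shown because they hold the octamer ATTTGCAT, in capitals, in 3 of the 4 genes.
IGKV1-122's upstream bases (chr6:67966606-67966665): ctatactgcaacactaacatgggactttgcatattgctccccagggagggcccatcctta
IGKV1-131's upstream bases (chr6:67716837-67716896): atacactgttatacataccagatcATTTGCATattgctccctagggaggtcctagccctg
IGKV1-132's upstream bases (chr6:67709564-67709623): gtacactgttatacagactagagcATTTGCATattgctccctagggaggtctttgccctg
IGKV1-133's upstream bases (chr6:67674778-67674837): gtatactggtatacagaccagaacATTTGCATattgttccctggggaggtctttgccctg
IGKV1-135's upstream bases (chr6:67559609-67559668): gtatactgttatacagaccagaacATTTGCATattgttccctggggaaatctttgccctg

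The octamer began 106 bases before the start codon in the open reading frame, IGKV1-132, IGKV1-133 and the distal relative, a position at which 9 of the 162 genes held it. On either strand of the 300 bases upstream it was present in 95 genes (58.6%). IGKV1-122 had no exact octamer in these 300 bases, and its best match covered 7 of 8 bases at the same position. Each of the 4 genes also held at least 1 E-box (CANNTG), as did 93.2% of all 162 genes. Over the 300 bases, IGKV1-133 was 95.7% identical to IGKV1-135's sequence, 82.9% to that of IGKV1-132 and 56.9% to that of IGKV1-122. The open reading frame, which was not found among the joints, thus held the octamer but not the heptamer.

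The values below are percentages of the Vκ-Jκ joints of a library, obtained by dividing each deposited value by the sum over all Vκ genes. Because the percentages of a library add up to 100, a lower share of 1 gene and a higher share of others cannot be told apart. Before this division, the values of all Vκ genes summed to between 4.87% and 6.77% in the pre-B libraries and to between 0.0740% and 0.377% in the pro-B libraries, of a total that was not given in the sources used here. At least 81.0% of the values above 0 in each library were whole multiples of a step specific to that library (tolerance 0.001), a feature found after the values were seen. The step was set to the largest unit of which a preset majority of these values were whole multiples, so a high share follows from that rule. A pre-B library summed to between 27178 and 56642 steps, whereas pro-B libraries summed to between 1191 and 4549, apart from 1 wild-type pro-B library with 164. In that library 1 step equals 0.610% of the joints, and 102 Vκ genes were listed at 0. What a step stands for was not given and no counting interval was derived from it, but the pro-B values of these genes rest on few steps and are correspondingly coarse.

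IGKV1-122 had the highest mean of the 4 genes in every group. In wild-type pre-B cells it took 0.945%, 0.964%, 1.01% and 0.864% of the joints in the 4 libraries, and in mutant pre-B cells 0.462%, 0.449%, 0.395% and 0.323%. The means were 0.946% ± 0.0608 (SD, n = 4) and 0.407% ± 0.0632 (SD, n = 4), so that the mutant had 43.1% of the wild-type level. All mutant libraries lay below all wild-type libraries.
In pro-B cells, the wild-type libraries ranged from 0.336% to 0.955% with a median of 0.485%, and the mutant libraries from 0.0656% to 0.217% with a median of 0.165%. The genotypes were again fully separated, and the mutant mean of 0.161% ± 0.0527 (SD, n = 6) was 29.4% of the wild-type mean of 0.546% ± 0.220 (SD, n = 6). By its mean, IGKV1-122 ranked 48th of all Vκ genes in wild-type and 74th in mutant pre-B cells.

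IGKV1-133, the most distal of the 4, took 0.304%, 0.509%, 0.600% and 0.492% in the wild-type pre-B libraries, and 0.151%, 0.180%, 0.161% and 0.126% in the mutant ones. Here too the genotypes did not overlap, with means of 0.476% ± 0.124 (SD, n = 4) and 0.155% ± 0.0227 (SD, n = 4).
In wild-type pro-B cells its values spread from 0% to 1.22% with a median of 0.313%. The highest value came from the library of 164 steps and stood for 2 of them. In mutant pro-B cells the gene was listed at 0 in 3 of 6 libraries and reached 0.132% at most, with a mean of 0.0333% ± 0.0512 (SD, n = 6), or 7.71% of the wild-type mean of 0.432% ± 0.425 (SD, n = 6). The genotypes overlapped in pro-B cells because 1 wild-type library was at 0 as well. Without the library of 164 steps the wild-type mean was 0.275% and the mutant had 12.1% of it, whereas without mutant library 6, which held 6 of the 8 steps of its group, the mutant had 3.15% of the wild-type mean.

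IGKV1-132 was the least used of the 3 detected genes. It took 0.252%, 0.238%, 0.272% and 0.236% in wild-type pre-B libraries and 0.0711%, 0.0626%, 0.0687% and 0.0590% in mutant pre-B libraries, again with no overlap. The mutant mean of 0.0653% ± 0.00557 (SD, n = 4) was 26.2% of the wild-type mean of 0.249% ± 0.0164 (SD, n = 4), a lower percentage than for IGKV1-122 (43.1%) and IGKV1-133 (32.5%).
Its pro-B values lay between 0% and 0.357% in wild-type libraries, with a median of 0.146%, and between 0% and 0.0656% in mutant libraries, 4 of which were at 0. All 6 mutant pro-B libraries together held 2 steps of IGKV1-132 and 8 of IGKV1-133, compared with 14 and 23 steps in the wild-type pro-B libraries. The genotypes overlapped for IGKV1-132 as well, and they no longer did so without the library of 164 steps.

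**Figure D1:**
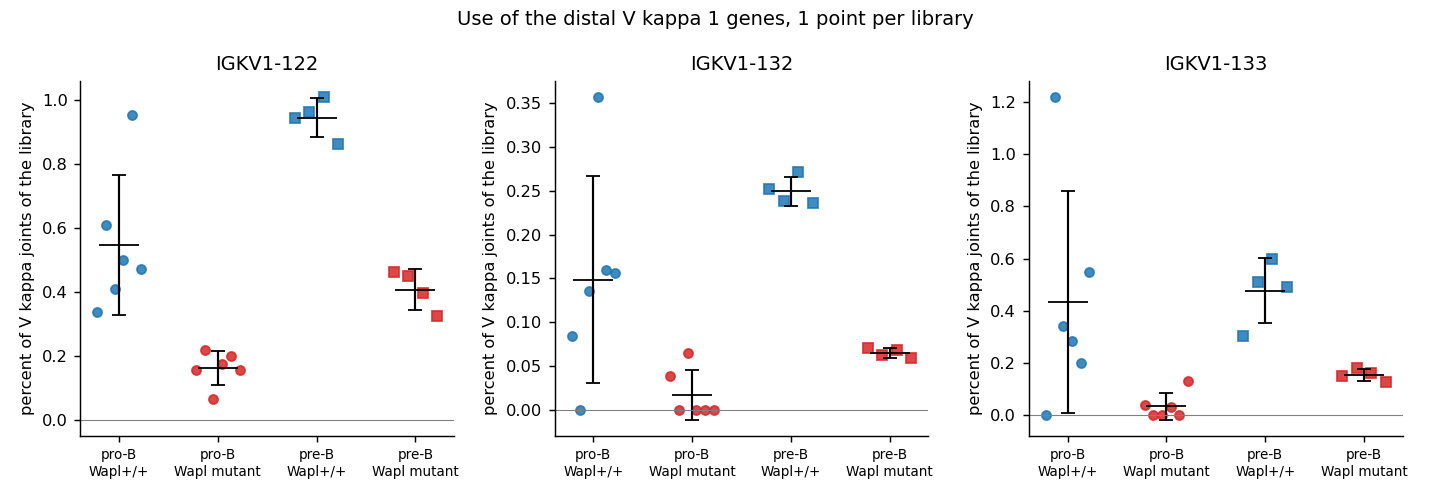
Percentage of the Vκ joints of a library (linear y axis, scaled for each gene) for IGKV1-122, IGKV1-132 and IGKV1-133 in the 4 groups on the x axis, with 1 point per library, the mean as a bar and the SD as whiskers. Pre-B values (squares) are fully separated by genotype for each gene, with at most 0.462% against at least 0.864% for IGKV1-122, whereas pro-B values (circles) spread widely in wild-type cells and reach 0% for IGKV1-132 and IGKV1-133 in both genotypes.

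As these genotype differences were used to choose the genes, they are a description and were not tested. In pre-B cells 3 of the 4 genes had all mutant libraries below all wild-type libraries, a pattern shown by 38.3% of the 107 Vκ genes with a mean of at least 0.05% (20.6% showed the opposite). In pro-B cells 1 of the 4 did, against 6.73% of 104 genes (8.65% showed the opposite). Over all genes, limma with Benjamini-Hochberg adjustment (adjusted p-value below 0.05) called 67.3% different between the genotypes in pre-B cells, 45.8% lower and 21.5% higher in the mutant, and 26% in pro-B cells, 13.5% lower and 12.5% higher. When each library was centred on the median of its tested genes, which moved the median difference in pro-B cells by 0.33 on the log2 scale, the pro-B calls changed from 14 lower and 13 higher to 5 lower and 17 higher. Without the wild-type library of 164 steps they were 32 lower and 17 higher.

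On the log2 scale of the percentage plus 0.05, the differences between mutant and wild type were -1.13 for IGKV1-122, -1.38 for IGKV1-132 and -1.34 for IGKV1-133 in pre-B cells, and -1.48, -1.40 and -2.15 in pro-B cells. In pre-B cells these were the 3 lowest of 107 genes, with IGKV17-127 next at -1.13. This order depends on the scale, since in percent of the wild-type mean IGKV14-130 (39.4%) was lower than IGKV1-122 (43.1%), and IGKV17-127 was at 43.5%. In pro-B cells they took places 5, 8 and 2 from the lowest of 104 genes. The median of all tested genes was -0.18 in pre-B and -0.26 in pro-B cells. Whether the genotype difference of these genes itself differed between pro-B and pre-B cells was not tested.

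The experiment numbers of the libraries fall into series that neither the labels nor the methods describe as batches, and the differences were therefore also computed within each series. The mutant mean was below the wild-type mean for the 3 detected genes in each of the 4 subsets. For IGKV1-122 the difference was -0.498 and -0.578 percentage points in the series of pre-B libraries, and -0.305 and -0.466 points in those of pro-B libraries. For IGKV1-132 it was -0.0385 and -0.224 points in the series of pro-B libraries, and for IGKV1-133 it was -0.507 and -0.291 points. Over all genes, limma called 0 of 103 genes different between the genotypes within the pro-B series that holds the library of 164 steps (24 at an unadjusted p-value below 0.05), and 20 of 100 genes within the other.
Without division by the sum over all genes, the deposited pro-B values gave a mutant mean of 57.2% of the wild-type mean for IGKV1-122, 19.3% for IGKV1-132 and 24.5% for IGKV1-133. The sums themselves were higher in mutant pro-B libraries (mean 0.255% ± 0.0812, SD, n = 6) than in wild-type ones (0.132% ± 0.0487, SD, n = 6). On that scale the pro-B genotypes overlapped for all 3 genes, while the pre-B percentages (43.5%, 26.4% and 32.1%) differed little from those given above.

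Most of the genes between and beside the 4 were lower in mutant pre-B cells as well. Of the 11 genes of other families from IGKV9-120 to IGKV1-133, 10 had a mean of at least 0.05% in pre-B cells. In the mutant, limma called 8 of these lower, compared with 45.8% of all 107 genes, and 1 higher. Their median log2 difference was -0.63. Among the 10, IGKV17-127 (-1.13, adjusted p = 3.9e-08) and IGKV14-130 (-1.04, adjusted p = 3.6e-06) fell most. Of the genes on either side of IGKV1-122, IGKV17-121 was lower (-0.70, adjusted p = 2.3e-05) and IGKV9-123 was higher (0.30, adjusted p = 0.00501). In pro-B cells limma called 3 of the 10 lower and none higher, with a median of -0.87, among them IGKV17-127 (-1.72, adjusted p = 0.00293). At an unadjusted p-value below 0.05 the number was 6, compared with 40 of all 104 genes. After centring on the library median, 8 were called lower in pre-B and 2 in pro-B cells.

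The other Vκ1 genes did not move in 1 direction in pre-B cells. Of these 9 genes, 5 passed the filter, and 2 were listed at 0 in all 20 libraries. In pre-B cells limma called IGKV1-99 lower (-0.45, adjusted p = 0.00341), as was IGKV1-117's share (-0.23, adjusted p = 0.00744), and IGKV1-88 higher (0.98, adjusted p = 2.0e-07). IGKV1-110, the closest relative of IGKV1-122, did not pass in pre-B cells (0.09, 95% interval -0.12 to 0.30, adjusted p = 0.413). IGKV1-135's difference in pre-B cells did not pass either (0.13, 95% interval -0.01 to 0.28, adjusted p = 0.0861).
In pro-B cells IGKV1-88 was called higher (0.96, adjusted p = 0.00293), and IGKV1-110 did not pass (0.51, 95% interval 0.08 to 0.93, adjusted p = 0.0745), whereas it did after centring (0.84, limma adjusted p = 0.0449). In the deposited values the mutant means of IGKV1-88 and IGKV1-110 were 400% and 280% of the wild-type means. In percentages of joints they were 200% and 140%. IGKV1-135's share was called lower in mutant pro-B cells (-0.85, adjusted p = 0.00293), with 11.3% ± 2.48 (SD, n = 6) of the joints in wild-type and 6.26% ± 1.27 (SD, n = 6) in mutant cells. That call depended on the scale, since the difference was -0.52 after centring on the library median (adjusted p = 0.181) and the mutant had 116% of the wild-type mean in the deposited values.

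**Figure D2:**
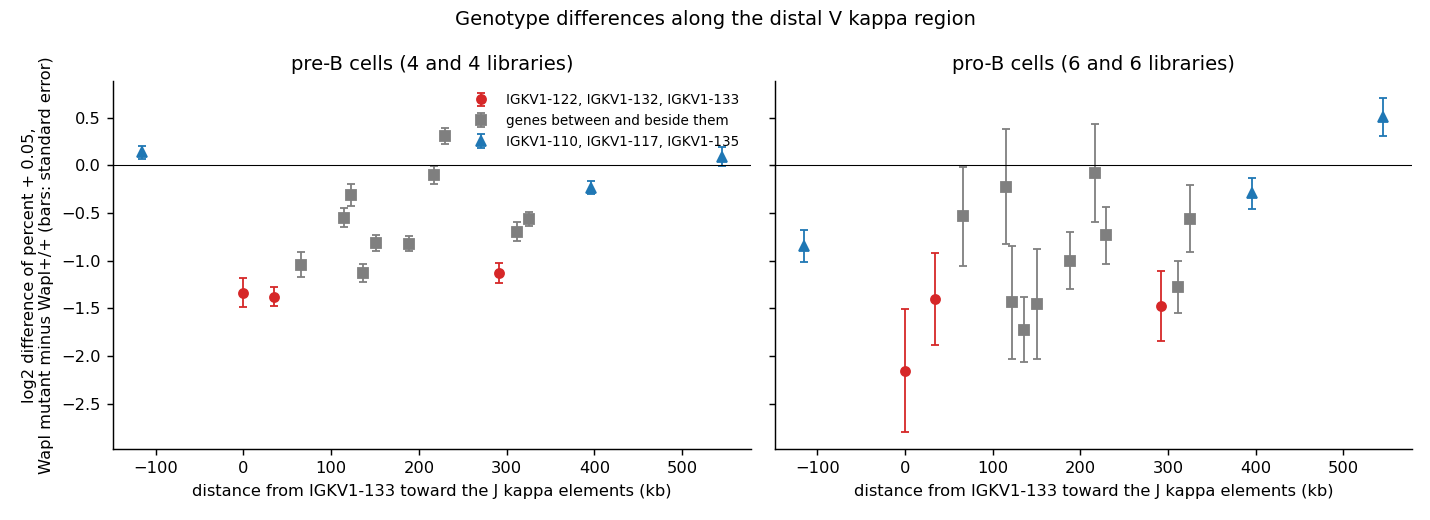
Log2 difference of the percentage plus 0.05 between mutant and wild-type cells (y axis, bars are limma standard errors) against the distance of a gene from IGKV1-133 toward the Jκ elements in kb (x axis), for pre-B cells on the left and pro-B cells on the right. In pre-B cells the 3 detected genes (red) lie between -1.38 and -1.13 and the genes between and beside them (grey) between -1.13 and 0.30, whereas the 3 Vκ1 relatives at the flanks (blue) lie between -0.23 and 0.13. In pro-B cells the same sets lie between -2.15 and -1.40, between -1.72 and -0.08 and between -0.85 and 0.51. The other tested Vκ1 genes, IGKV1-88 (0.98 in pre-B cells) and IGKV1-99 (-0.45), are not drawn.

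The comparison of the cell types asked whether the use of these genes differs between pro-B and pre-B cells. It gave both genotypes equal weight and used none of the genotype contrasts that had served to choose the genes. IGKV1-122, IGKV1-132 and IGKV1-133 took a smaller share of the joints in pro-B than in pre-B cells when both genotypes were averaged. The log2 differences were -0.98 for IGKV1-122 (95% interval -1.41 to -0.55, limma adjusted p = 0.000652), -0.85 for IGKV1-132 (-1.46 to -0.24, adjusted p = 0.0191) and -1.06 for IGKV1-133 (-1.93 to -0.18, adjusted p = 0.0384). The open reading frame could not be tested. These 3 calls stand beside 52.8% of the 106 tested genes that were called different, 41.5% lower and 11.3% higher in pro-B cells, with a median log2 difference of -0.57 over all tested genes. Relative to that median, the 3 genes lay at -0.41, -0.28 and -0.48, at places 24, 28 and 21 from the lowest.

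By group means, the wild-type pro-B level was 57.8% of the pre-B level for IGKV1-122, 59.6% for IGKV1-132 and 90.8% for IGKV1-133, and in the mutant it was 39.5%, 26.7% and 21.6%. Single libraries carried 3 of these 6 values. Without the wild-type library of 164 steps that of IGKV1-133 was 57.7%, without mutant library 6 it was 8.81%, and without mutant library 3 that of IGKV1-132 was 11.9%. None of the genes had all wild-type pro-B libraries below all pre-B libraries, a pattern shown by 24.8% of all genes tested. In the mutant IGKV1-122 did, as did 33% of all genes.
The calls depended on the processing. After centring on the library median, which raised the median difference by 0.56, the 3 genes had log2 differences of -0.43, -0.30 and -0.50 and none passed (limma adjusted p = 0.110, 0.601 and 0.454), with 10 genes called lower and 20 higher in place of 44 and 12. With the series of experiment numbers as a covariate none of the 3 passed either (limma adjusted p = 0.101, 0.239 and 0.290). Of the series, only 1 holds both cell types, so this fit takes their difference from that series. Fitted alone, that series kept the calls of IGKV1-122 and IGKV1-132 but not that of IGKV1-133. In wild-type libraries alone none of the 3 passed (-0.81, -0.84 and -0.65, limma adjusted p = 0.0810, 0.236 and 0.488), with 9 genes called lower and 11 higher of 105. In mutant libraries alone IGKV1-122 (-1.15, limma adjusted p = 0.00275) and IGKV1-133 (-1.47, limma adjusted p = 0.00240) passed and IGKV1-132 fell below the filter, with 42 genes called lower and 12 higher of 100. The call of IGKV1-133 was also lost in 11 of 20 fits that each left out 1 library.

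Of the 9 other Vκ1 genes 5 were tested, and 4 of these were called higher in pro-B cells, opposite to the detected genes, among them IGKV1-110 (0.95, adjusted p = 1.3e-05) and IGKV1-88 (0.40, adjusted p = 0.0087). IGKV1-135's share was higher in pro-B cells by 0.83 (adjusted p = 4.2e-06) and IGKV1-117's by 0.47 (adjusted p = 0.000483), and these 4 calls held after centring on the library median. IGKV1-99 did not pass (-0.39, adjusted p = 0.270), and its sign turned with centring (0.16, adjusted p = 0.777). All 12 genes called higher lay from IGKV4-79 to IGKV2-137, where 8 of the 43 tested genes, the 3 detected genes included, were called lower. With the joints of this stretch as the denominator the balance turned, with 22 genes called lower and 6 higher of 44. Of the 10 tested genes of other families between IGKV9-120 and IGKV1-133, 3 were called lower, namely IGKV14-126 (-1.52, adjusted p = 0.00181), IGKV11-125 (-0.79, adjusted p = 0.00144) and IGKV9-120 (-0.65), and none higher. Over all 106 tested genes, 41.5% were called lower. The median of the 10 was -0.46, and after centring it was 0.09 with none of them called.

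**Figure D3:**
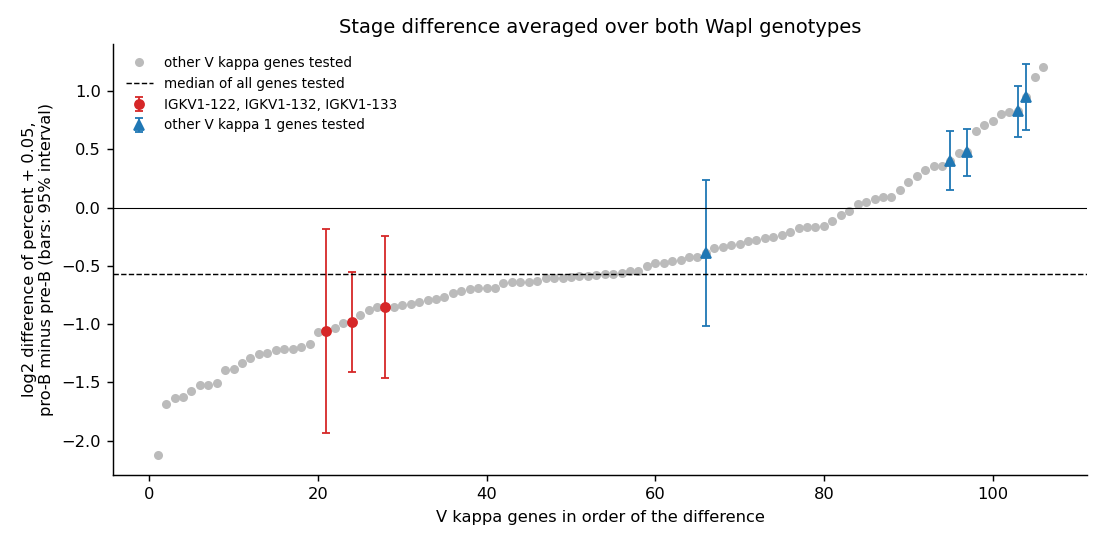
Log2 difference of the percentage plus 0.05 between pro-B and pre-B cells, averaged over both genotypes (y axis), for the 106 tested Vκ genes in order of the difference (x axis), with 95% intervals for the Vκ1 genes and the median of all tested genes as a dashed line at -0.57. IGKV1-122, IGKV1-132 and IGKV1-133 (red) lie between -1.06 and -0.85, and 4 of the 5 other tested Vκ1 genes (blue) lie between 0.40 and 0.95.

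To compare the directions without the total of a library, each detected gene was set, within the same library, against the tested gene outside the 4 that was closest to it in V exon sequence, a description that was added after the values were seen. The relative was IGKV1-110 for IGKV1-122. For IGKV1-132 and IGKV1-133 it was IGKV1-135's share. On the scale of the log2 ratio, with 0.05 added to each percentage, IGKV1-122 against IGKV1-110 averaged -0.89 ± 0.09 (SD, n = 4) in pre-B and -2.44 ± 0.64 (SD, n = 6) in pro-B cells of the wild type, and -2.11 ± 0.39 (SD, n = 4) and -4.42 ± 0.67 (SD, n = 6) in those of the mutant. The difference between pro-B and pre-B cells over both genotypes was -1.93 for IGKV1-122, -1.68 for IGKV1-132 and -1.88 for IGKV1-133. As these are the differences of both genes of a pair already given, they are no separate evidence, and a permutation test of them that was run after the values were seen is not used as support. The 3 genes and their relatives lay on opposite sides of 0 in the comparison of the cell types, and after centring on the library median the differences were 1.51 for IGKV1-110 and 1.38 for IGKV1-135's share but -0.43, -0.30 and -0.50 for the 3 genes, so that on that scale the larger portion of each came from the relative.

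IGKV1-133 and its distal relative have nearly the same upstream sequence and V exon but differ in the spacer and nonamer of their signals. Their use was very different. How reads fitting both genes were assigned was not given in the sources used here. By group means, IGKV1-135's share was 9.31 times that of IGKV1-133 in wild-type pre-B cells and 31.5 times in mutant pre-B cells. Single libraries gave ratios between 6.93 and 15.0 in the wild type and between 29.1 and 37.3 in the mutant, without overlap. As IGKV1-135's share was 4.43% and 4.87% in these groups, the separation largely restates the genotype difference by which IGKV1-133 was chosen. It is a description, and 38.3% of 107 genes had all mutant pre-B libraries below all wild-type ones. In pro-B cells the ratio of the means was 26.2 in the wild type and 188 in the mutant, the latter resting on 8 steps of IGKV1-133. Without mutant library 6 it was 459. IGKV1-135's rank was 2 in mutant pro-B cells and 1 in the other groups, whereas IGKV1-133 ranked between 69th and 100th.

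**Figure D4:**
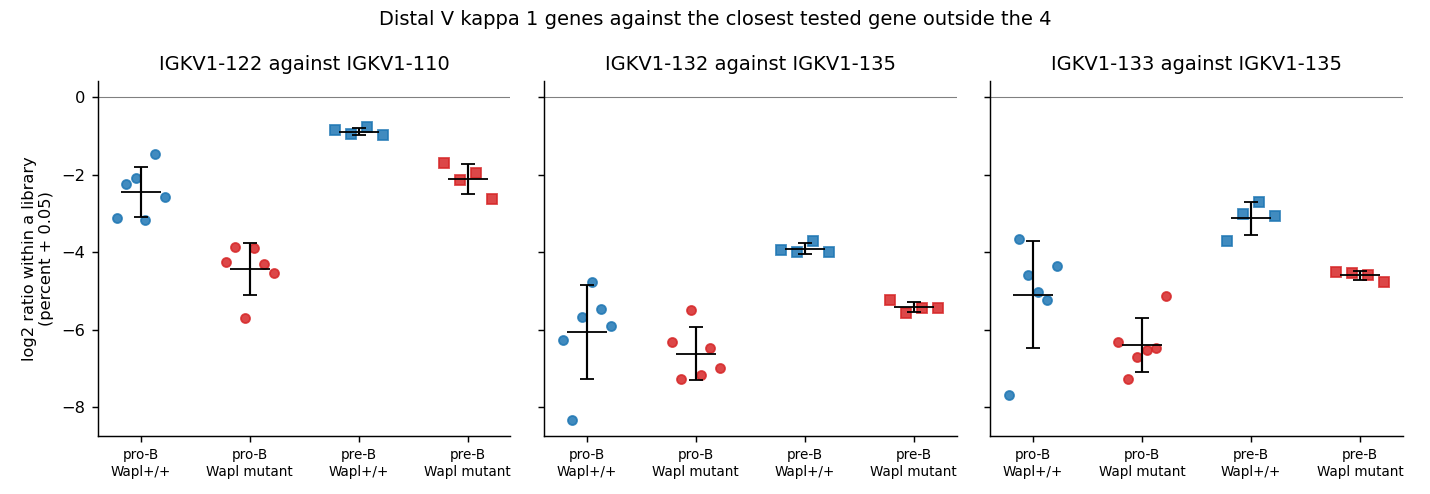
Log2 ratio of IGKV1-122, IGKV1-132 and IGKV1-133 to the closest tested gene outside the 4 within a library, with 0.05 added to each percentage (y axis), for the 4 groups on the x axis, with 1 point per library, the mean as a bar and the SD as whiskers. Each ratio has a lower mean in pro-B (circles) than in pre-B cells (squares) of the same genotype, such as -2.44 against -0.89 for IGKV1-122 in the wild type.

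Ordered by their means, the 4 groups came in the same sequence for each detected gene, with wild-type pre-B cells highest, followed by wild-type pro-B, mutant pre-B and mutant pro-B cells. For IGKV1-133 the first 2 groups changed places without wild-type pro-B library 1 or 5, where the pro-B mean was 109% and 101% of the pre-B mean. Neighbouring groups in this order overlapped, apart from the 2 mutant groups for IGKV1-122. Summed over the 4 genes, the share of joints was 1.67% ± 0.164 (SD, n = 4), 1.13% ± 0.467 (SD, n = 6), 0.627% ± 0.0851 (SD, n = 4) and 0.212% ± 0.0505 (SD, n = 6) in this order.

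The genes whose pattern over the 20 libraries was most like that of a detected gene lay both near to it and far from it. By Pearson's r of the log2 percentages, the closest of 105 genes to IGKV1-122 were IGKV12-41 (0.90), IGKV6-23 (0.86) and IGKV8-23-1 (0.82). For IGKV1-132 they were IGKV11-125 (0.86), IGKV8-19 (0.83) and IGKV14-126 (0.81), and for IGKV1-133 they were IGKV6-23 (0.80), IGKV1-122 (0.78) and IGKV4-74 (0.74). IGKV1-135's coefficients with the 3 genes were -0.02, -0.12 and 0.18. These coefficients describe libraries that share groups, depth and a fixed total and carry no test.

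Chromatin marked by H3K27 acetylation was available as the peak list of 1 ChIP-seq library from pro-B cells of Rag1(Cre/Cre) mice, without replicates and with a score of 0 for all 17935 peaks. No peak lay between IGKV9-120 and IGKV1-133. The nearest peak to all 4 genes was that at chr6:67215290-67220402, beyond the distal end of the Vκ genes, at a distance of 746 kb from IGKV1-122, 496 kb from the open reading frame, 489 kb from IGKV1-132 and 455 kb from IGKV1-133. The median distance to the nearest peak over all 162 Vκ genes was 614 kb, and a single peak lay within the Vκ gene cluster. IGKV1-135's distance to the same distal peak was 339 kb.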

How the data were processed

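The authors sheared 2 μg of genomic DNA, ligated adapters with unique molecular identifiers, extended biotinylated Jκ primers and sequenced nested PCR products paired-end on a MiSeq instrument. For each Vκ gene the authors deposited 1 percent value per library, and R 3.3.3 is named among their tools per the labels. The total behind these values and the way shared reads were assigned are not given in the sources used here. Replicates were not pooled. The H3K27ac peaks were deposited on mm9, with Bowtie 1.0 among the tools named per the labels. The 8 Igh files and the score column of the peaks were not used, and the Hi-C samples were not analysed here.

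Each value was divided by the sum over all Vκ genes of its library to give percentages. The genes and gene lists were chosen with earlier results of these data known, so that genotype contrasts of the 4 genes were described and not tested. The tests were made with limma 3.58.1 (R 4.3.3, trended empirical Bayes) on log2 percentages with 0.05 added, for genes averaging 0.05% or more in the libraries of a fit, two-sided, with Benjamini-Hochberg adjustment over all genes tested and a threshold of 0.05. The pro-B to pre-B difference was fitted to all 20 libraries with 4 group means, and each genotype difference to the libraries of that cell type alone. P-values measure the spread between libraries, for which the labels name no separate animals. Log2 differences depend on the added 0.05, which shrinks the changes of low genes. They compare means of logs, so where values spread widely they can also exceed the difference of group means. For IGKV1-133 in wild-type libraries the cell types differed more on the log2 scale than by group means, with pro-B at 90.8% of pre-B. The fits were tested on simulated data with a fixed total per library, in which unchanged genes were called as well where many genes changed strongly, and in which the pro-B fit missed a larger portion of moderate changes than the pre-B fit. Named by rule were the 4 genes, the 9 other Vκ1 genes, the 11 genes of other families from IGKV9-120 to IGKV1-133 and, per detected gene, the 3 genes with the highest Pearson's r. Which of the 9 and the 11 were described by value was decided after their values were seen.

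Gene positions and functional classes came from the Vκ gene list of the study, sequences from the NCBIM37 (mm9) genome and exons from GENCODE vM1. The heptamer was searched at the first 6 positions behind the V exon, with a spacer of 12 bases to the nonamer, and the octamer and E-box on both strands of 300 bases before the start codon. Identities came from global alignments in Biopython 1.88 under Python 3.11.15. Alternatives comprised added values of 0.01 and 0.2, other filters and denominators, array weights, the series of experiment numbers, an exact permutation test and each library left out. Centring on the library median, the deposited values without division, the ratios to relatives and the group means without each library were added after seeing the data.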

Additional observations from a re-analysis of the deposited data

Results flagged for a closer look

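In the 6 mutant pro-B libraries, 1 library stood far from the others for IGKV1-133, with 0.132% of the joints compared with 0.0390% in the next highest. The gap makes up 0.704 of the whole range of the group. This library has the largest sum of steps of its group (4549), and 6 of these fell to IGKV1-133. It was the only one singled out among the 16 sets of values examined in this way (the 3 detected genes and the sum of the 4, in 4 groups). For continuous values chance gives about 1 in 20, a rate that need not hold here, where 3 of the 6 values are 0 and the others are a few steps.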

How the results depend on the processing

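No paired analysis was possible because the labels give the libraries no replicate numbers. The pro-B to pre-B difference kept its direction for the 3 detected genes in every alternative that gave a value, but the adjusted p-value (limma, or the permutation test across all genes) reached 0.05 or more in 3 of 33 alternatives for IGKV1-122 (range 6.4e-07 to 0.110), 3 of 31 for IGKV1-132 (9.0e-05 to 0.601) and 17 of 33 for IGKV1-133 (0.000177 to 0.488). With the series of experiment numbers as a covariate the log2 differences were -0.72, -0.70 and -0.90 with 17 genes called, after centring on the library median -0.43, -0.30 and -0.50 with 30, and in wild-type libraries alone -0.81, -0.84 and -0.65 with 20. IGKV1-133 also lost its call with 0.2 added (-0.48), without the 2 most used genes in the denominator (-1.02) and within the series holding both cell types (-0.90). With 1 library left out, the differences of the 3 genes lay between -1.06 and -0.90, between -0.98 and -0.68 and between -1.25 and -0.79, and 50 to 67 genes were called. The call of IGKV1-133 was lost without pro-B libraries 4 or 5 of the wild type or 2, 3 or 5 of the mutant, and without pre-B libraries 2, 3 or 4 of the wild type or 1, 2 or 3 of the mutant (adjusted p between 0.0503 and 0.0734). With the distal part of the locus as denominator 28 genes were called, of the 44 then tested, and 33 and 16 in the genotype comparisons of pre-B and pro-B cells.

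The genotype differences of the 3 genes kept their sign in all alternatives. In pre-B cells the log2 difference was -1.78 for IGKV1-132 with 0.01 added, -0.92, -0.76 and -0.91 for IGKV1-122, IGKV1-132 and IGKV1-133 with 0.2 added, -1.29, -1.72 and -1.56 with the distal denominator, and -1.05 and -1.62 for IGKV1-133 within the series. In pro-B cells IGKV1-132 gave -2.54 with 0.01 added and -0.43 and -2.38 within the series, and the deposited values gave 57.2% for IGKV1-122 and 24.5% for IGKV1-133. The pro-B genotype calls numbered 49 with array weights and 16 to 49 with 1 library left out, namely 49 without the wild-type library of 164 steps and 16 without mutant library 2, 22 after centring, and 0 and 20 within the series of experiment numbers. Where no construction of the alternative explains it, the cause was not tested. IGKV1-132 fell below the filter of 0.2% and, in mutant libraries alone, below that of 0.05%, and gave no value there. In pro-B libraries other than that of 164 steps, 1 step equals up to 0.0840% of the joints.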

Other observations

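Among the joints of the 4 genes, the makeup in pre-B cells is given as a description from the same contrast that chose the genes. IGKV1-122 made up 56.8 of 100 such joints ± 4.24 (SD, n = 4) in the wild type and 64.8 ± 1.94 (SD, n = 4) in the mutant, with no overlap. IGKV1-132 made up 15.0 ± 1.28 (SD, n = 4) and 10.5 ± 1.10 (SD, n = 4), also without overlap, and IGKV1-133 made up 28.2 ± 5.38 (SD, n = 4) and 24.7 ± 1.82 (SD, n = 4), with overlap. Per 100 joints of all genes from IGKV9-120 to IGKV1-133, the 4 genes took 15.1 ± 0.813 (SD, n = 4) in wild-type and 9.70 ± 1.39 (SD, n = 4) in mutant pre-B cells. The values for pro-B cells were 13.8 ± 8.62 (SD, n = 6) and 5.72 ± 1.37 (SD, n = 6) and overlapped.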
